A study of Mus musculus with 8 samples.

Results

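The genes described here are 7 matrix metalloproteinases (Mmp2, Mmp3, Mmp9, Mmp12, Mmp13, Mmp14 and Mmp19) and 3 tissue inhibitors of metalloproteinases (Timp1, Timp2 and Timp3), taken by their symbols from the 21848 genes of a single-cell RNA sequencing (scRNA-seq) experiment. All 10 genes were found in the deposited matrices. Their unique molecular identifiers (UMIs, one per captured transcript) were read from 46216 droplets of 8 libraries, each droplet holding at least 2000 UMIs with less than 20% of them mitochondrial. Each library came from 1 mouse, and the mouse was the replicate throughout. All 8 mice, labelled female with the genotype Bl/J6 (C57Bl/6J in the series design, while the methods name C57BL/6N mice of both sexes), received photothrombosis (PT), in which Rose Bengal and cold light close the vessels under a spot 4 mm wide over the right sensorimotor cortex. The 4 saline mice carried a minipump with saline, and the 4 ancrod mice a minipump with ancrod at 2.4 U per day, a snake venom enzyme that depletes fibrinogen from the blood. Pumps were placed 2 days before PT, and the lesion with its rim was dissociated 6 days after PT without sorting. Every mouse was injured, so the experiment compared fibrinogen depletion with control pumps and held no uninjured cortex. The meninges were removed, and cells lost or stressed by the dissociation are missing, in shares that may differ between the groups. The paper's methods report that proportions of injury-site cells (reactive fibroblasts and macrophages) tended to be higher after fibrinogen depletion. The paper names easier dissociation with less fibrosis as the likely reason, which was not tested here.

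Matrix metalloproteinases are zinc-dependent enzymes that cleave collagens, fibronectin, laminins and other extracellular proteins, and they are made as inactive proenzymes. Mmp14 stays in the cell membrane and activates pro-Mmp2 in a complex that also contains Timp2, whereas the other 6 enzymes are secreted. TIMPs bind the active site of these enzymes, and Timp3 itself stays bound to the matrix. After stroke the family is known for opening the vessel basement membrane, for leukocyte entry and for remodelling of the scar. Transcript counts say nothing about how much of an enzyme was active.

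The libraries held 97861434 to 122758649 UMIs in the saline mice and 126682918 to 142139441 in the ancrod mice, with 5080 to 6277 kept droplets each and a median of 10653 to 17575 UMIs per droplet. Pairs of libraries shared 3 to 15 cell barcodes. Replicates 1 to 3 of each group were injured and sequenced in the first batch and replicate 4 of each group in the second. Clusters were made without any Mmp or Timp gene and named from marker genes, and 16 classes of cells were found, each written here as "-like". No cluster was named from the oligodendrocyte or the reactive astrocyte markers, and neuron-like cells numbered 401. Clusters that failed the naming rule stayed unnamed, although some had class markers among their leading genes. Unnamed clusters held 13.7% ± 2.49 (SD, n = 4) of cells in saline mice and 12.7% ± 2.95 in ancrod mice. The fibroblast-like class, which matters most below, held 2276 cells with a median of 41788.5 UMIs, of which 674 came from saline and 1602 from ancrod mice. Saline replicate 3 gave only 18 of them. Levels are given as CPM, the UMIs of a gene per 1000000 UMIs of that class in that mouse, and are compared within a gene, between classes or mice.

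Mmp13, Mmp12 and Mmp3 lie in this order on the plus strand of chromosome 9 within 183.462 kb (GRCm39, chr9:7272514-7455975), with Mmp1b on the other strand overlapping Mmp12, and the sequences before their starts are shown because Mmp3 and Mmp13 were also the pair with the most alike levels across classes. The activator protein 1 (AP-1) site is known to act in collagenase and stromelysin promoters. The table of promoters from RefSeq (GRCm38.p6) held 7 of the 10 genes, with 2 starts for Mmp12. Capitals mark the AP-1 motif TGANTCA, which reads the same on both strands, and the TATA motif TATAAA, searched on both strands. The motifs do not overlap each other.
Mmp3, chr9:7445672-7445821, plus strand, 150 bases before the start: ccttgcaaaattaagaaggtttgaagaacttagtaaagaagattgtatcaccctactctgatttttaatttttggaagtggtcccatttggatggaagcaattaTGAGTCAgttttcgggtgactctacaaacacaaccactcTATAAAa
Mmp13, chr9:7272364-7272513, plus strand, 150 bases before the start: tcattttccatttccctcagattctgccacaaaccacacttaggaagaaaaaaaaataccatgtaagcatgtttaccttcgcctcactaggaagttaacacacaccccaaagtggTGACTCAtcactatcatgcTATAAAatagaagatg
Mmp12, second start, chr9:7347224-7347373, plus strand, 150 bases before the start: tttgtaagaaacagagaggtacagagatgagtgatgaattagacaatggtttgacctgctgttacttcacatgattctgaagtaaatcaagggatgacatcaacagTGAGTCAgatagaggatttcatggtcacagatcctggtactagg

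Within 250 bases before a start, the AP-1 motif was found in Mmp3, Mmp13 and the second start of Mmp12, and not in Mmp14, Timp1, Timp2 or Timp3. Its first base lay at −46 in Mmp3, −44 in Mmp12 and −35 in Mmp13. The same window held the AP-1 motif in 6.75% of all 32851 promoters of the table and the TATA motif in 12.4%. These matches are letters in a window and not measured binding.

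Across the classes, the 10 genes fell into a few patterns. Mmp2, Mmp3, Mmp13, Mmp14 and Timp1 were highest in fibroblast-like cells, Mmp9 in neutrophil-like cells, Mmp12 and Mmp19 in monocyte-like cells, Timp2 in microglia-like cells and Timp3 in smooth muscle-like cells. Neighbouring classes in the order of each gene were compared within mice by an exact sign-flip permutation test of log2(CPM + 1), adjusted over 30 pairs, and 14 of the pairs passed the threshold of 0.05. With all 8 mice in the same direction the unadjusted p was 0.0078125, the smallest this design allows. Calls with 7 of 8 mice were lost when a mouse other than the deviating one was left out, at an adjusted p of 0.0625 to 0.067 by the exact permutation test with 7 mice; these were the pairs of Mmp9 in fibroblast-like and pericyte-like cells (kept without ancrod replicate 4), Timp2 in microglia-like and inflammatory macrophage-like cells (kept without saline replicate 1) and Timp3 in endothelial-like and astrocyte-like cells (kept without ancrod replicate 4).

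**Figure D1:**
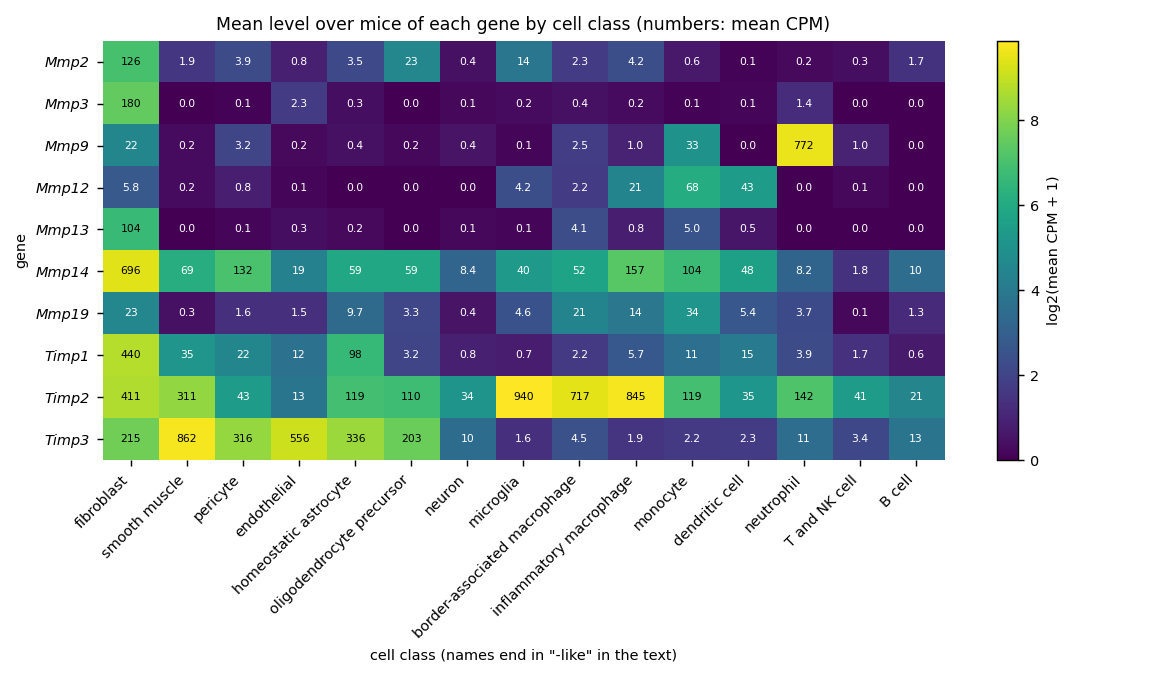
Mean CPM over mice of each gene (rows) in each named class (columns), printed in the cell, with the colour giving log2(mean CPM + 1). The fibroblast-like column holds the highest value of Mmp2, Mmp3, Mmp13, Mmp14 and Timp1, from 104 CPM for Mmp13 to 696 for Mmp14.

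The gelatinases Mmp2 and Mmp9 digest denatured collagen and basement membrane collagen, and they had different highest classes. Mmp2 in fibroblast-like cells was 166, 159, 65.3 and 132 CPM in saline replicates 1 to 4 and 109, 115, 124 and 136 CPM in ancrod replicates 1 to 4. The lowest value was that of saline replicate 3, and the groups overlapped. The mean of 126 CPM ± 31.4 (SD, n = 8) stood above that of oligodendrocyte precursor-like cells, at 22.9 ± 11.4, by 2.51 on the log2 scale in 8 of 8 mice (exact sign-flip permutation test, adjusted p = 0.0213). The latter class rested on 76 Mmp2 UMIs in 38 of 139 droplets, with 10 to 31 cells per mouse. Oligodendrocyte precursor-like cells and microglia-like cells, at 13.8 CPM ± 2.40, did not differ beyond the spread between mice (exact permutation test, adjusted p = 0.148, and 0.0391 without ancrod replicate 2). Microglia-like cells still held 22.4% of all Mmp2 UMIs, since they were the most numerous class. Fibroblast-like cells held 72.3%, from 7.61% in saline replicate 3 to 85.0% in another mouse.

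Mmp9 was a gene of neutrophil-like cells, in which it is stored in granules. The saline mice gave 528, 1001, 958 and 865 CPM there and the ancrod mice 738, 583, 703 and 798, so the groups overlapped. The lowest value, of saline replicate 1, rested on 24 UMIs in 12 cells, and the other saline mice all lay above the ancrod mice. After every cell was thinned to 2000 UMIs, 62.7% of neutrophil-like cells had an Mmp9 UMI, against 0.291% of T and NK cell-like and 0.0468% of microglia-like cells. Unthinned, the shares were 78.5% at a median of 4851 UMIs, 0.727% at 8573.5 UMIs and 0.158% at 15377 UMIs. The neutrophil-like level exceeded the next, of monocyte-like cells, by 7.08 on the log2 scale in 8 of 8 mice (exact permutation test, adjusted p = 0.0213). The second place of monocyte-like cells, at 32.8 CPM ± 53.9 (n = 8), rested on 3 droplets of 1516: 603 of 606 UMIs in ancrod replicate 2, 209 of 209 in ancrod replicate 3 and 142 of 146 in saline replicate 2. Without these droplets the levels in those mice went from 150 to 0.759, from 64.4 to 0 and from 46.9 to 1.29 CPM. Fibroblast-like cells carried Mmp9 at 22.1 CPM ± 11.8 in all 8 mice, from 5.94 to 38.5, above pericyte-like cells in 7 of 8 mice (exact permutation test, adjusted p = 0.0335). Neutrophil-like cells held 47.7% of Mmp9 UMIs (9.49% to 93.8% by mouse) and fibroblast-like cells 32.9% (0.996% to 83.0%), and fibroblast-like cells held the larger share in 4 of 8 mice.

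Mmp3 (stromelysin 1) and Mmp13 (collagenase 3, which cuts fibrillar collagen) had most of their UMIs in fibroblast-like cells. Mmp3 there was 177, 278, 47.5 and 124 CPM in the saline mice and 265, 279, 166 and 102 in the ancrod mice. Both groups spread widely, and saline replicate 3 was again the lowest. Of all Mmp3 UMIs, 98.2% were in fibroblast-like cells, with 87.0% in the lowest mouse. The second class, endothelial-like cells, lay 6.58 lower on the log2 scale in 8 of 8 mice (exact permutation test, adjusted p = 0.0213). In that class 157 of 161 UMIs of ancrod replicate 1 came from 1 droplet, which also held 214 UMIs of fibroblast markers and 723 of endothelial markers.

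Mmp13 in fibroblast-like cells was 65.4, 182, 14.2 and 57.6 CPM in the saline mice and 85.2, 221, 122 and 83.8 in the ancrod mice. Replicate 2 was the highest of each group, and the groups overlapped. The level was 4.06 higher on the log2 scale than in monocyte-like cells, whose mean was 5.00 CPM ± 4.42, in 8 of 8 mice (exact permutation test, adjusted p = 0.0213). Fibroblast-like cells held 96.5% of Mmp13 UMIs in all, but 13.2% in saline replicate 3, where monocyte-like cells held 54.9%. In the 2276 fibroblast-like droplets, both Mmp3 and Mmp13 were found in 344, Mmp3 alone in 444, Mmp13 alone in 222 and neither in 1266. Of the droplets with Mmp13, 60.8% also held Mmp3, and of those with Mmp3, 43.7% held Mmp13. Droplets with both had a median of 51900 UMIs and those with neither 35763.5, so depth moved with this count and its part was not tested. In T and NK cell-like cells 0 of 688 droplets held a UMI of either gene, which allows up to 0.436% of droplets with a UMI for each. This limit covers counting error only and does not bound expression, at a median of 8573.5 UMIs.

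Mmp12 (macrophage elastase) was highest in 3 myeloid classes, whereas neutrophil-like cells had 0 UMIs and border-associated macrophage-like and microglia-like cells had means of 2.25 and 4.22 CPM. In monocyte-like cells it was 49.9, 94.7, 65.9 and 10.4 CPM in the saline mice and 26.6, 204, 41.6 and 51.2 in the ancrod mice. A single droplet of ancrod replicate 2 held 41.2% of the Mmp12 UMIs of that mouse, and without it the level went from 204 to 121 CPM. The order was monocyte-like cells (68.0 CPM ± 60.4), dendritic cell-like cells (42.8 ± 29.8) and inflammatory macrophage-like cells (20.8 ± 5.13; n = 8 for each), and neighbours in it were not told apart (exact permutation tests, adjusted p = 0.400 and 0.298). Monocyte-like and inflammatory macrophage-like cells were not tested against each other. Inflammatory macrophage-like cells stood above fibroblast-like cells by 1.91 on the log2 scale in 8 of 8 mice (exact permutation test, adjusted p = 0.0213), a call lost with doublets kept (exact permutation test, adjusted p = 0.117). Within the inflammatory macrophage-like class, the dividing cluster led by H1f5, Pclaf, Mki67 and Top2a reached 73.5 CPM ± 45.1, against 9.88 ± 4.71 in the other cluster, and was higher in 7 of 8 mice (14.1 against 15.7 CPM in saline replicate 2). It held 29 to 84 cells per mouse, with 14.1 to 141 CPM. The direction was opposite for Timp2 in 8 of 8 mice, with 352 ± 145 in the dividing cluster and 943 ± 100 in the other.

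Mmp14, the membrane-anchored activator of pro-Mmp2, had the most even distribution of the fibroblast-like genes. It was 989, 822, 550 and 624 CPM in fibroblast-like cells of the saline mice and 660, 611, 671 and 639 in those of the ancrod mice. The ancrod values lay close together and inside the saline range. After thinning, 68.2% of fibroblast-like cells had an Mmp14 UMI, against 0.436% of T and NK cell-like cells, and unthinned the shares were 97.6% and 1.16%. Inflammatory macrophage-like cells came next, at 157 CPM ± 18.9, and lay 2.13 lower on the log2 scale in 8 of 8 mice (exact permutation test, adjusted p = 0.0213). Pericyte-like cells (132 ± 25.2) and monocyte-like cells (104 ± 33.6) followed, and neighbours were not told apart (exact permutation tests, adjusted p = 0.130 and 0.164).

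Mmp19, which acts on basement membrane proteins, was low and had no single main class. In monocyte-like cells it was 10.8, 37.2, 36.0 and 23.9 CPM in the saline mice and 81.8, 41.2, 24.7 and 18.9 in the ancrod mice. Fibroblast-like cells, at 22.9 CPM ± 7.20, border-associated macrophage-like cells, at 21.0 ± 9.97, and inflammatory macrophage-like cells, at 14.3 ± 4.01, followed, and none of these neighbours differed beyond the spread between mice (exact permutation tests, adjusted p from 0.130 to 0.645), although without saline replicate 1 monocyte-like cells passed above fibroblast-like cells (exact permutation test, adjusted p = 0.0361). Its UMIs were divided among fibroblast-like cells with 29.7%, microglia-like cells with 18.5%, inflammatory macrophage-like cells with 17.5% and monocyte-like cells with 16.3%.

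**Figure D2:**
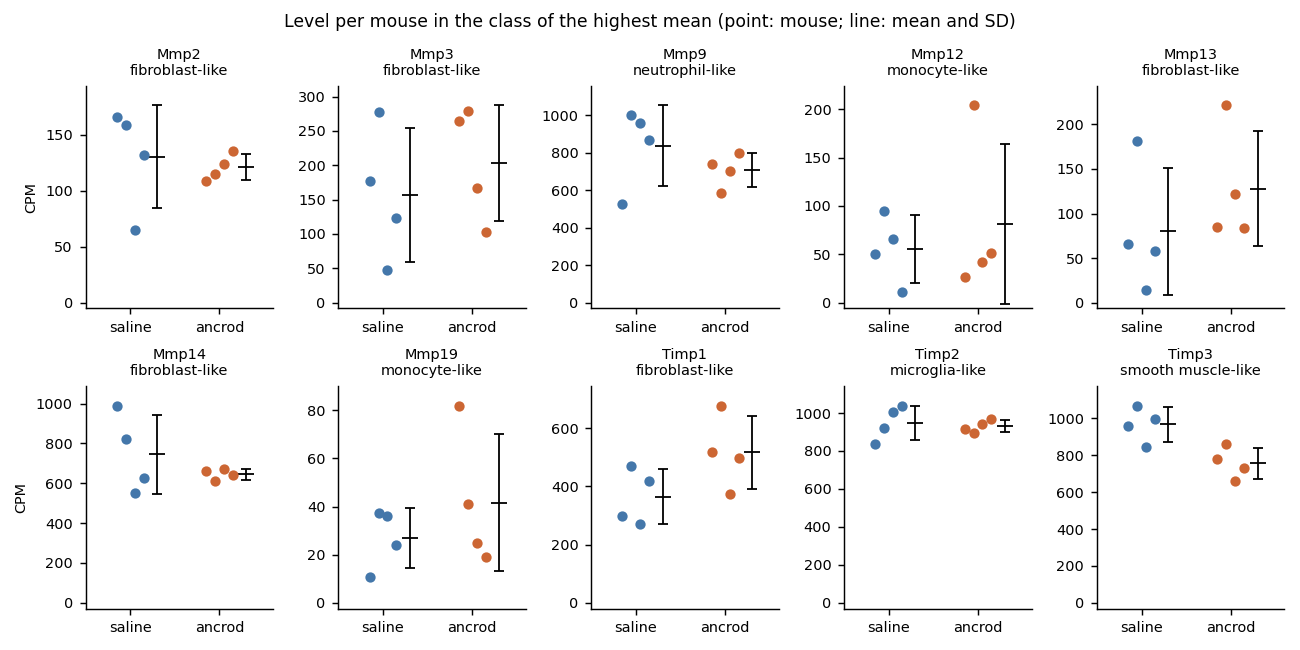
CPM of each gene in the class of its highest mean, 1 point per mouse, with the mean and SD of the 4 saline and the 4 ancrod mice (linear axes that differ between panels; the lower SD bar of Mmp12 in ancrod mice reaches just under 0). The groups overlap in every panel, and the highest Mmp12 point is ancrod replicate 2 at 204 CPM.

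The inhibitors were divided among cell types. Timp1, an inducible and secreted inhibitor, was 300, 469, 271 and 418 CPM in fibroblast-like cells of the saline mice and 518, 677, 374 and 497 in those of the ancrod mice. Of the 4 ancrod mice 3 lay above all saline mice, and ancrod replicate 3 lay among them. The class held 80.5% of all Timp1 UMIs, from 20.4% to 93.2% by mouse. Homeostatic astrocyte-like cells came second with 97.7 CPM ± 44.1 and lay 2.23 lower on the log2 scale in 8 of 8 mice, and they stood 2.65 above smooth muscle-like cells in 8 of 8 mice (exact permutation tests, adjusted p = 0.0213 for both). With doublets kept the second of these differences was 1.01 in 4 of 8 mice and lost its call (exact permutation test, adjusted p = 0.487). Smooth muscle-like cells held 109 Timp1 UMIs in all, 74.3% of them in 10 droplets, with 18 to 42 cells per mouse. Among the astrocyte-like clusters, Timp1 was 177 CPM ± 72 in the one led by Fbxo2, Gfap and Clu and 115 ± 50 in the one led by Aldoc, Mt3 and Gfap, against 15.4 ± 9.5 in the one led by Gpc5 and Gabrb1. Gfap is on the list of reactive astrocyte markers, so the class name does not mean that all its cells were unreactive. An unnamed cluster of 610 cells led by Fabp7, Ckap2 and Igfbp2 had 322 CPM ± 122.

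Timp2, a widely expressed inhibitor and the partner of Mmp14, was highest among the named classes in microglia-like cells and the macrophage-like classes. Monocyte-like cells had 119 CPM ± 33.1 (n = 8). Microglia-like cells of the saline mice gave 835, 921, 1003 and 1035 CPM and those of the ancrod mice 916, 897, 941 and 971. These values differed little, and the ancrod range lay inside the saline range. Inflammatory macrophage-like cells at 845 CPM ± 91.9 lay 0.16 lower on the log2 scale in 7 of 8 mice (exact permutation test, adjusted p = 0.0335), and border-associated macrophage-like cells at 717 ± 83 were not told apart from these (exact permutation test, adjusted p = 0.0732). Fibroblast-like cells, at 411 ± 66, lay below border-associated macrophage-like cells in 8 of 8 mice (exact permutation test, adjusted p = 0.0213). Within the microglia-like class, Timp2 ran from 408 CPM ± 55 in the cluster led by P3h2 and Bank1 to 1790 ± 101 in the cluster led by Cd5l, Igf1, Apoc4 and Spp1. Timp2 was also the member with the most free RNA, at 478 to 848 CPM in droplets of at most 100 UMIs, and 6.83% of T and NK cell-like cells had a Timp2 UMI after thinning against 70.6% of microglia-like cells. Unthinned, the shares were 24.7% and 96.8%.

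Timp3, the matrix-bound inhibitor, was a gene of the vessel wall. Smooth muscle-like cells gave 956, 1068, 845 and 997 CPM in the saline mice and 779, 859, 660 and 729 in the ancrod mice, with 1 ancrod mouse above the lowest saline mouse. Endothelial-like cells, at 556 CPM ± 134, lay 0.65 lower on the log2 scale in 8 of 8 mice (exact permutation test, adjusted p = 0.0213). Homeostatic astrocyte-like cells, at 336 ± 43, lay below endothelial-like cells in 7 of 8 mice (exact permutation test, adjusted p = 0.0335, and 0.0586 with doublets kept) and were not told apart from pericyte-like cells at 316 ± 68 (exact permutation test, adjusted p = 0.572). An unnamed cluster of 532 cells led by the pericyte markers Rgs5, Abcc9 and Higd1b had 695 ± 203 CPM. The highest level of all was in another unnamed cluster, of 1259 cells led by Gkn3, Sema3g, Lypd1 and Bmx, at 1536 ± 282 CPM. Endothelial-like cells held 40.1% of Timp3 UMIs, fibroblast-like cells 15.8%, that unnamed cluster 15.4% and astrocyte-like cells 13.1%. Syn3, which overlaps Timp3 on the other strand, had 4506 UMIs against 57058 of Timp3 in endothelial-like cells, and Syn1, which overlaps Timp1, had 1410 against 45511 in fibroblast-like cells.

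**Figure D3:**
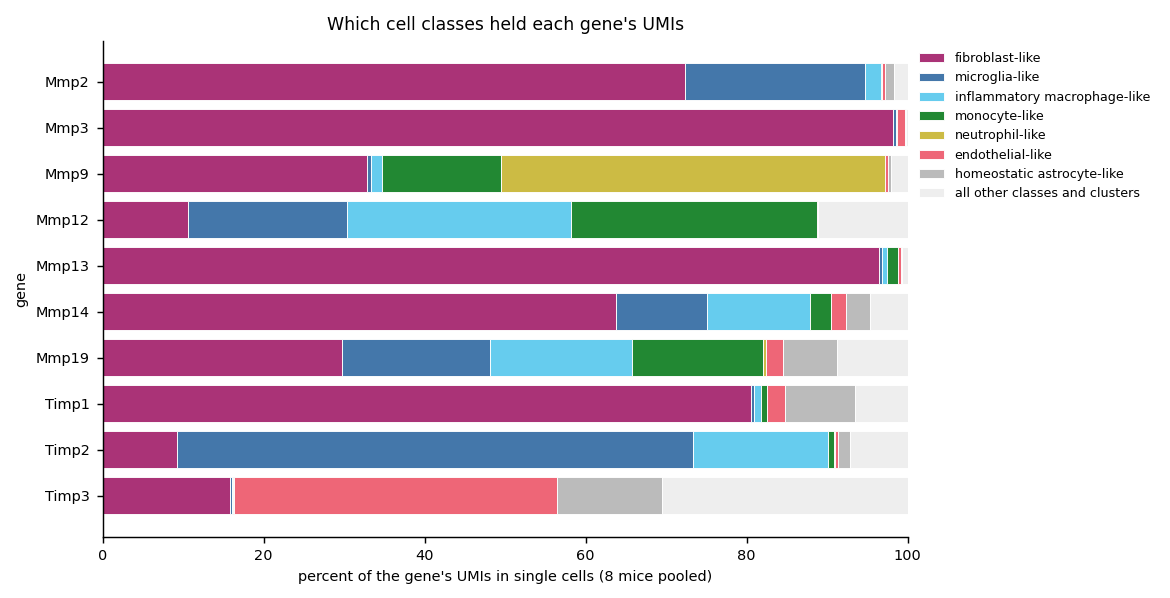
Share of the UMIs of each gene that fell in each class, pooled over the 8 mice (stacked bars, percent). Mmp3 and Mmp13 sit almost wholly in fibroblast-like cells (98.2% and 96.5%), whereas Mmp12 and Mmp19 are divided among at least 4 classes.

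The fibroblast-like class was not uniform in these genes. Its 5 clusters were made without them, and values below are means over the mice with enough cells (n = 7 for the first 2 clusters). The largest (cluster 21), of 860 cells led by Cemip, Lama1, Aldh1a2 and Lum, had the most Mmp2 (215 CPM ± 18), Mmp19 (48.9 ± 11.8) and Timp3 (391 ± 84). The next (cluster 25), of 697 cells led by Col8a1, Col12a1 and Lrrc17, had 116 ± 24 of Mmp2, 13.3 of Mmp19 and 147 of Timp3, and was lower for each of these 3 genes in 7 of 7 mice. It was higher in Timp1, at 572 against 278 ± 66 CPM in 7 of 7 mice, and in Mmp3, at 302 against 113 CPM in 6 of 7. Cluster 38, with 326 cells led by Penk, Ccn3 and Slc47a1 had the least Mmp13 and Mmp14, at 10.1 and 367 CPM, below the largest cluster in 6 of 6 mice, and the most Timp2, at 650 ± 67, above it in 6 of 6. The dividing cluster 40, of 280 cells led by H1f5, Hmmr and Cdc20 had 345 CPM of Mmp3 and 606 of Timp1. The smallest (cluster 48), of 113 cells led by Apod, Fabp4 and Mdk, had enough cells only in 3 ancrod mice, with 533 CPM of Mmp3 and 697 of Timp1. With cells pooled over mice, the largest cluster made up 47.6% of the fibroblast-like cells of the saline mice and 33.6% of those of the ancrod mice, and the dividing cluster 8.01% and 14.1%. Single mice gave 18 to 646 of these cells, so mice with many cells weigh more in these shares. Levels in the class as a whole therefore averaged over clusters in different proportions, and the part of this in the group values was not tested.

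**Figure D4:**
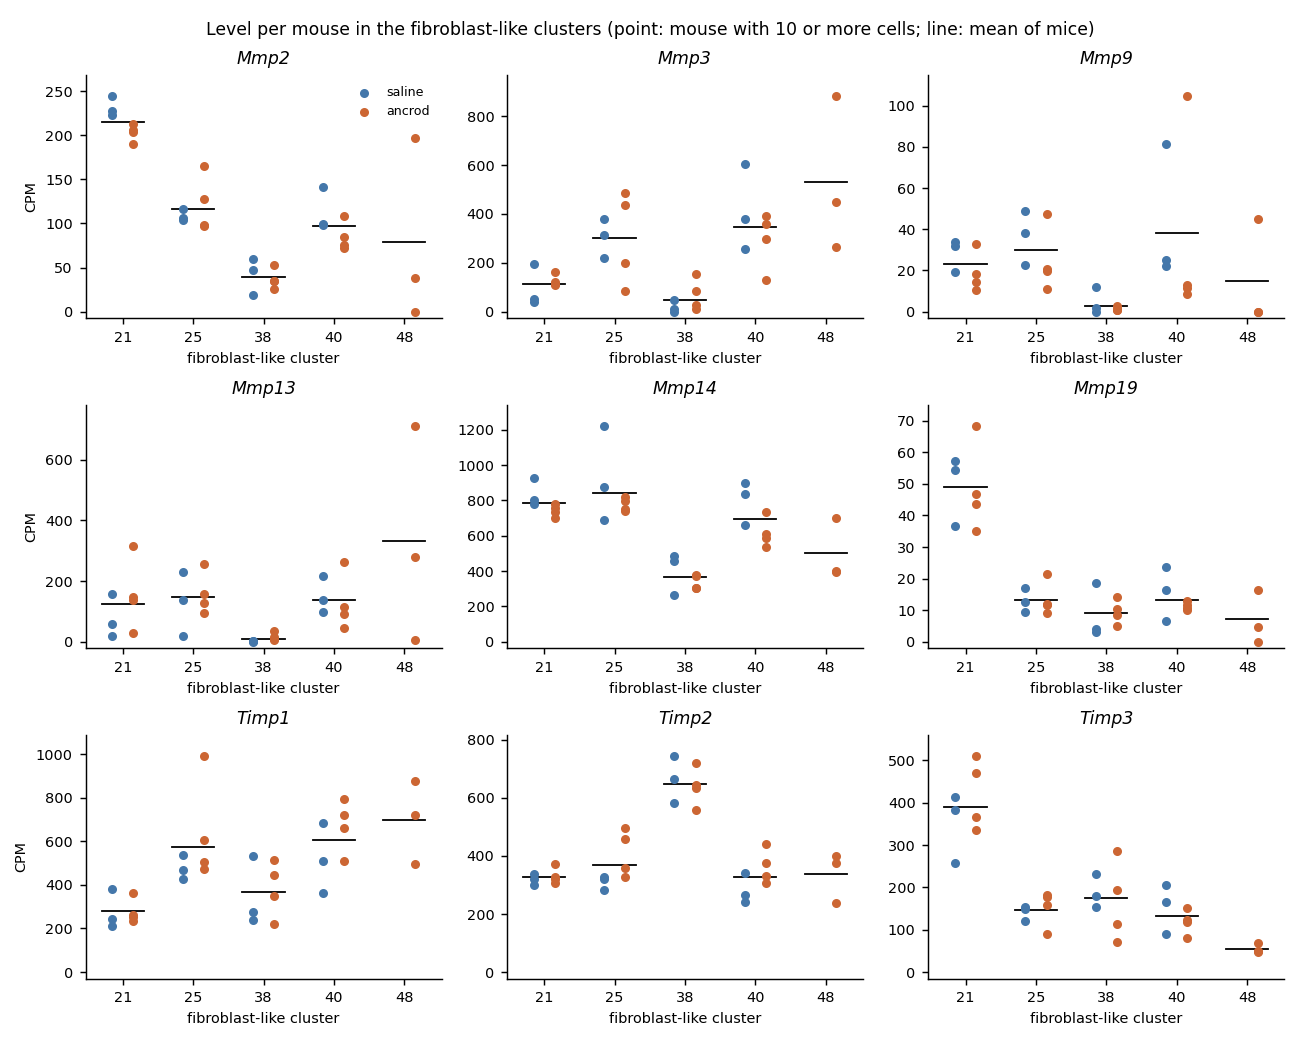
CPM of 9 of the genes in the 5 fibroblast-like clusters, numbered as in the text, with 1 point per mouse that had enough cells (blue saline, orange ancrod) and a line at the mean. Mmp2, Mmp19 and Timp3 are highest in cluster 21, led by Cemip and Lama1 (215, 48.9 and 391 CPM), whereas Timp1 is higher in cluster 25, led by Col8a1 (572 CPM).

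Ancrod and saline mice were then compared within classes by edgeR's quasi-likelihood test on UMIs summed per mouse and class, with Benjamini-Hochberg adjustment over all genes tested in the class. Of 15 named classes with enough mice, 14 had a member above the filter on low counts, and none of the 65 tests of the 10 genes there passed the threshold. At an unadjusted p under 0.05 there were 12, where 6.04% of all tests in these classes were. DESeq2 called 1, and its share over all genes is not given here, so the shares in this paragraph are those of edgeR. Of the 65 log2 fold changes 44 were positive and 21 negative. The share of all genes called was 0.00778% in fibroblast-like, 0.0076% in microglia-like, 0.0211% in border-associated macrophage-like, 0.0436% in B cell-like and 0.647% in pericyte-like cells and 0% in the other 10 classes. A count of 0 members was thus close to the background of each class in which a member was tested. In 7 unnamed clusters 18 more tests were made, of which none passed and 2 had an unadjusted p under 0.05, against 0% and 4.21% of all tests there.

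In the class of its highest level, no gene passed the threshold. The log2 fold change of ancrod over saline in fibroblast-like cells was −0.12 (SE 0.23) for Mmp2, 0.33 (SE 0.45) for Mmp3, 0.59 (SE 0.55) for Mmp13 and −0.19 (SE 0.17) for Mmp14, with adjusted p of 0.883, 0.812, 0.703 and 0.682 from edgeR. The direction of Mmp3 was lost with doublets kept, at −0.09. From the first batch to the pair of the second, fibroblast-like values went from 0.43 to −0.27 for Mmp3, −0.22 to 0.04 for Mmp2 and −0.30 to 0.03 for Mmp14. Timp1 in fibroblast-like cells had 0.51 (SE 0.22), an adjusted p of 0.446 and an unadjusted p of 0.0449 by edgeR, where 11.1% of all genes of that class had an unadjusted p under 0.05. Over the 10 genes in fibroblast-like cells, 6 were higher and 4 lower in ancrod mice, with a median log2 fold change of 0.07 against 0.00 over all genes tested. The values were −0.32 (SE 0.24) for Mmp9 in neutrophil-like cells, 0.50 (SE 0.64) for Mmp12 and 0.56 (SE 0.40) for Mmp19 in monocyte-like cells, 0.01 (SE 0.09) for Timp2 in microglia-like cells and −0.33 (SE 0.13) for Timp3 in smooth muscle-like cells, all with an edgeR adjusted p of at least 0.833. For Mmp12 the fold change was −0.60 without ancrod replicate 2, and for Mmp19 it was −0.03 without ancrod replicate 1. From the first batch to the pair of the second, Mmp19 went from 0.66 to −0.32 and Timp2 from 0.03 to −0.09 in these classes. For no gene did the difference of the ancrod effect between the 2 highest classes pass (exact permutation test of 70 arrangements, 0 of 10 with an adjusted p under 0.05). The lowest unadjusted p of this permutation test was 0.0857, for Mmp13 (adjusted 0.571), and the smallest p the design allows is 0.0286. After adjustment over the 10 genes, a single gene at that smallest p could not pass, so the test cannot decide whether the effect differed.

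In 2 classes the mice of the groups did not overlap for a member. Mmp14 in endothelial-like cells was 9.00, 13.4, 11.2 and 12.2 CPM in the saline mice and 39.5, 14.9, 19.4 and 35.5 in the ancrod mice, a log2 fold change of 1.24 (SE 0.29) with an edgeR adjusted p of 0.473 (unadjusted p 0.0018), and DESeq2 gave an adjusted p of 0.0223. Of all genes tested in this class, 2.57% had all ancrod mice above all saline mice and 10.1% an unadjusted p under 0.05. Summed fibroblast markers in endothelial-like cells were 37.3 to 39.6 CPM in saline and 28.7 to 91.5 CPM in ancrod mice, with UMIs of 9 of the 10 markers. Mmp14 in free RNA was 41.7 to 82.2 CPM in saline and 66.3 to 134 in ancrod mice, above the endothelial-like levels. With free RNA subtracted at 5% the log2 fold change was 1.46 (edgeR adjusted p = 0.569), and a larger part of free RNA or of fibroblast RNA was not tested. Within the first batch the log2 fold change was 1.13, and between the pair of the second batch it was 1.47. In the largest of the 4 endothelial-like clusters, of 2543 cells, mean Mmp14 was 2.94 CPM in saline and 3.27 in ancrod mice. The part of the mix of clusters in the endothelial-like values was not tested. Timp1 in microglia-like cells was 0.43, 0.49, 0.42 and 0.38 CPM in the saline mice and 1.05, 0.88, 0.84 and 1.13 in the ancrod mice, resting on 206 UMIs in all. Its log2 fold change was 1.22 (SE 0.23) with an edgeR adjusted p of 0.953, and 0.676% of all genes of the class showed the same separation. Timp1 in free RNA was 14.3 to 53.7 CPM in saline and 53.2 to 82.1 in ancrod mice, and fibroblast markers in microglia-like cells were 3.40 to 7.32 and 6.72 to 14.0 CPM. With free RNA subtracted at 5%, Timp1 no longer passed the filter on low counts in microglia-like cells and could not be fitted, and the part of fibroblast RNA was not tested. In an unnamed cluster of 856 cells led by Cd5l, Apoc4, Fabp3 and Cst7, with a median of 2941.5 UMIs, Timp2 was 2034, 1730, 1623 and 1767 CPM in the saline mice and 1396, 1328, 1477 and 1114 in the ancrod mice. All saline mice lay above all ancrod mice, as for 1.9% of the genes tested there, with a log2 fold change of −0.44 (SE 0.10) and an edgeR adjusted p of 0.169.

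Over the whole lesion, with all droplets of a mouse summed, the enzymes and Timp1 were on average higher in the ancrod mice, but no gene passed the threshold by edgeR. Of the 10 genes 8 were higher and 2 lower, with a median log2 fold change of 0.58 against −0.01 over the 16275 genes tested. The share of all genes called was 0.0123% and that with an unadjusted p under 0.05 was 19.9%, against 0 and 4 of the 10 members. DESeq2 called 3 of them (Timp1, Mmp3 and Mmp13). The shares above are those of edgeR, and the share of all genes that DESeq2 called is not given here. Timp1 was 42.8, 45.4, 20.6 and 63.2 CPM in the saline mice and 95.4, 74.2, 105 and 124 in the ancrod mice. The groups did not overlap, with a 2.31-fold higher mean in ancrod mice and a log2 fold change of 1.19 (SE 0.30, edgeR adjusted p = 0.132). Mmp3 was 16.5, 20.7, 6.49 and 16.1 CPM in the saline mice and 39.5, 26.4, 39.1 and 23.0 in the ancrod mice, also without overlap, at 1.08 (SE 0.34, edgeR adjusted p = 0.165). All ancrod mice lay above all saline mice for 5.77% of all genes tested.

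Mmp13, at 8.01 CPM ± 4.66 in saline and 20.0 ± 6.1 in ancrod mice (n = 4 each), had a log2 fold change of 1.28 (SE 0.40, edgeR adjusted p = 0.165), and its groups overlapped. Mmp14 was 109 ± 27 against 163 ± 42 CPM (0.57, SE 0.22, edgeR adjusted p = 0.223) and Mmp2 17.8 ± 6.4 against 27.2 ± 9.9 (0.60, edgeR adjusted p = 0.353). Mmp9, Mmp12 and Mmp19 had log2 fold changes of 0.87, 0.56 and 0.38, and Timp2 and Timp3 had −0.15 and −0.26, with edgeR adjusted p from 0.278 to 0.636. Within the first batch Timp1, Mmp3 and Mmp13 had log2 fold changes of 1.32, 1.26 and 1.26, and between the pair of mice of the second batch 0.96, 0.49 and 1.30. Mmp9 had 1.17 in the first batch and −0.35 in the second, Mmp19 0.50 and −0.02, and Timp3 −0.37 and 0.19.

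The make-up of the samples also differed between mice. Endothelial-like cells, which held most Timp3 UMIs of any class, made up 16.03% to 17.71% of cells in saline and 6.34% to 13.6% in ancrod mice, and inflammatory macrophage-like cells, which held part of Mmp12, Mmp14 and Mmp19, 4.22% to 6.02% and 7.60% to 9.14%, both without overlap. Fibroblast-like cells made up 9.59%, 7.90%, 0.82% and 11.7% of all UMIs in the saline mice and 14.6%, 5.81%, 24.0% and 23.3% in the ancrod mice. The groups overlapped in this share, and saline replicate 3 and ancrod replicate 2 were low. Ancrod replicate 2 had a lower share than saline replicates 1, 2 and 4. In the whole lesion it had more Timp1 (74.2 against 42.8, 45.4 and 63.2 CPM) and Mmp3 (26.4 against 16.5, 20.7 and 16.1 CPM). Saline replicate 3, with the lowest share, had the lowest whole-lesion level of both genes. Within fibroblast-like cells, ancrod replicate 2 had the highest Timp1 of all mice, while its Mmp3 (279 CPM) was about that of saline replicate 2 (278 CPM). In whole-lesion sums, more cells of a type and more RNA of a gene per cell cannot be told apart, and the part of these shares in the values was not tested. Within fibroblast-like cells the log2 fold changes of Timp1, Mmp3 and Mmp13 were 0.51, 0.33 and 0.59, against 1.19, 1.08 and 1.28 in the whole lesion.

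**Figure D5:**
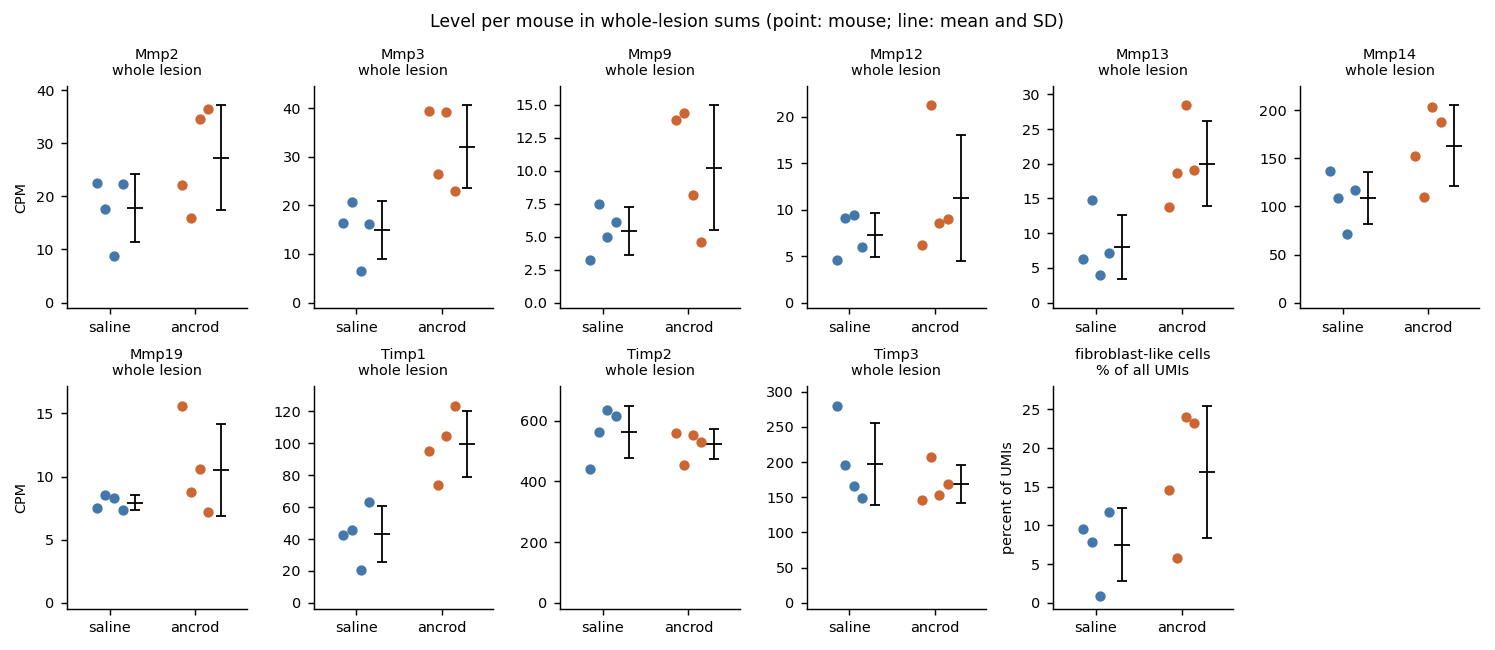
CPM of each gene over all droplets of a mouse, 1 point per mouse with the mean and SD of the 4 saline and 4 ancrod mice (linear axes that differ between panels), and in the last panel the share of all UMIs in fibroblast-like cells. Timp1 and Mmp3 are the panels without overlap (Timp1 20.6 to 63.2 against 74.2 to 124 CPM), and the fibroblast-like share overlaps.

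The other genes of the pathway were taken from 5 lists: other MMP genes (16 listed), other inhibitors (4), the plasminogen system and proenzyme convertases (9), docking and uptake receptors (8) and matrix substrates (10). Mmp8, the neutrophil collagenase, was highest in neutrophil-like cells (509 CPM ± 284), Plat, a plasminogen activator, in pericyte-like cells (690), Plaur, the urokinase receptor, in monocyte-like cells (386), Timp4 in homeostatic astrocyte-like cells (236 ± 24) and Bsg, the MMP inducer also called CD147, in endothelial-like cells (8819 ± 897). In fibroblast-like cells 8, 3, 7, 8 and 9 genes of the lists were tested and none passed. The 9 matrix substrates tested there were all lower in ancrod mice, with a median log2 fold change of −0.18 and none with an unadjusted p under 0.05. In the whole lesion 11, 4, 8, 8 and 10 were tested and none passed, and the 10 matrix substrates were all higher in ancrod mice (median 0.35). Of these 10, 1 had an unadjusted p under 0.05, where 19.9% of all genes did. In endothelial-like cells all 10 were also higher (median 0.35) and in inflammatory macrophage-like cells 8 of 9 (median 0.68), and none passed. An unadjusted p under 0.05 was found for 5 of the 10 in endothelial-like cells, where 10.1% of all genes had one, and for 4 of the 9 in inflammatory macrophage-like cells, where 347 of 11222 genes had one. Free RNA of Col1a2, at 110 to 497 CPM in saline and 239 to 1262 in ancrod mice, and the fibroblast markers in endothelial-like cells given above also moved, and their part was not tested.

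All 4 calls among the list genes were in pericyte-like cells, where 24 of these genes were tested, and were higher in ancrod mice. Of all 9120 genes tested in that class 0.647% were called, the highest share of any class. Fn1 (fibronectin) was 135, 143, 110 and 106 CPM in the saline mice and 371, 272, 202 and 280 in the ancrod mice, without overlap, as for 2.6% of the genes tested there, and rose by 1.24 on the log2 scale (SE 0.17, edgeR adjusted p = 0.00358). Col1a2, a chain of type I collagen, was 278 ± 15 against 401 ± 36 CPM (0.59, SE 0.11, edgeR adjusted p = 0.0226), Serpine2, a protease inhibitor, 357 ± 48 against 640 ± 186 (0.90, SE 0.18, edgeR adjusted p = 0.0244) and Mmp11 (stromelysin 3) 26.8 ± 3.2 against 53.3 ± 18.5 (1.05, SE 0.23, edgeR adjusted p = 0.0449). Fn1 kept its call in every alternative run, whereas the other 3 lost theirs without any 1 of the saline mice or ancrod replicate 1. With each of the 8 mice left out in turn, the log2 fold changes were 0.50 to 0.62 for Col1a2, 0.68 to 1.04 for Serpine2 and 0.79 to 1.16 for Mmp11. Summed fibroblast markers in pericyte-like cells were 1034 to 1361 CPM in saline and 990 to 1264 in ancrod mice. In free RNA, Fn1 was 345 to 451 CPM in saline and 347 to 772 in ancrod mice and Col1a2 110 to 497 and 239 to 1262, around or above their pericyte-like levels, while Mmp11 was 1.25 to 7.41 and 2.88 to 6.96 and Serpine2 179 to 315 and 204 to 279. In fibroblast-like cells Col1a2 was at 7265 CPM and Fn1 at 2671. With free RNA subtracted at 5% of each summed count, all 4 kept their calls, at 1.35 for Fn1, 0.55 for Col1a2, 0.93 for Serpine2 and 1.05 for Mmp11 (edgeR adjusted p from 0.0036 to 0.0392). A larger part of free RNA was not tested. Of the members, 4 were tested in pericyte-like cells and none passed, with Timp1 at 1.03 and an edgeR adjusted p of 0.253. An unnamed cluster of 532 cells led by the pericyte markers Rgs5, Abcc9, Higd1b and Vtn had 25 list genes tested and none called. Its 8 tested matrix substrates had a median log2 fold change of 0.11, against 0.53 for the 8 tested in pericyte-like cells.

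Across 15 classes, the level of each gene was set against that of 16275 other genes as a description. Mmp3 was most like Bpifb1 (Pearson r 0.99 of log2 mean CPM), Ces2g and Reg3g, Mmp13 like Sectm1a (0.98), Wnt6 and Dnai3, and Mmp9 like Cxcl3 (0.93), Prtn3 and Hp. Timp3 was most like Tgfb2 (0.98), Tcf7l1 and Osmr, Timp1 like Gli1 (0.89), Msx1 and 2310034G01Rik and Timp2 like Saa3 (0.88), Hebp1 and Sord. Mmp2 was most like Steap1 (0.87), Mdfi and Mtch1, Mmp14 like Tm2d2 (0.90), Nt5dc2 and Cnpy2, Mmp12 like Car6 (0.89), Tns4 and Fcrlb and Mmp19 like Hmox1 (0.86), Mfsd5 and Hacd4. Among the members themselves, Mmp3 and Mmp13 had the highest r (0.86), followed by Mmp14 and Timp1 (0.70), and Mmp12 and Timp3 the lowest (−0.53). The classes share libraries and differ in depth and cell number, so these coefficients describe these 8 mice.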

How the data were processed

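Lesion cells of 8 mice were run on 10x 3′ version 3.1 chips, 1 library a mouse. The deposited matrices hold the authors' unnormalized UMI counts for every droplet, from Cell Ranger 7.1.0 with STAR on GRCm39, intronic reads included. Droplets with at least 2000 UMIs and under 20% mitochondrial UMIs were kept (46216), and 2144 likely doublets were removed by simulated neighbours at 0.8% per 1000 droplets, except from whole-lesion sums. The rest were clustered (3000 variable genes without mitochondrial, Mmp, Timp and list genes, 20 components, 20 neighbours, Leiden resolution 2) with Python 3.11.15, scikit-learn 1.9.0, igraph 0.11.9 and leidenalg 0.10.2. Each of the 54 clusters took the class with the highest scaled marker mean, and stayed unnamed with a score under 0.25, fewer than 3 markers detected in 10% of its cells, leading genes of another class, or few UMIs and no marker among its leading genes. This naming rule was set after the clusters were seen.

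UMIs were summed per mouse and class (at least 10 cells, at least 3 mice a group) and tested with edgeR 4.0.16 in R 4.3.3 (filterByExpr, TMM, quasi-likelihood test, Benjamini-Hochberg, threshold 0.05). Each SE was derived from the edgeR test, as the size of the log2 fold change over the square root of its F statistic. DESeq2 1.42.0 was an alternative. Class order and differences of effect used two-sided exact permutation tests over mice with numpy 2.4.6. Replicate numbers were not taken to pair the mice: in 0 of 16 units was the correlation r of deviations from the group mean over 0.1 in every same-numbered pair. This rule cannot see a single linked pair. The fits were tested on simulated counts. Each gene was described in its highest class and wherever groups did not overlap or it passed, list genes where they passed, and 3 genes of most alike pattern per member. The members, lists and rules were chosen with earlier results of these data known. Shares and levels of UMIs carry counting error that limits low genes, and counts from 8 mice limit all comparisons between groups.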

Additional observations from a re-analysis of the deposited data

Results flagged for a closer look

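Mmp12 in monocyte-like cells was 204 CPM in ancrod replicate 2 (203.89 CPM), while the next highest of the 4 ancrod mice had 51.2 CPM. The gap to that mouse was 0.861 of the range of the group, above the limit of Dixon's test for 4 values. In all 46 groups of 4 mice were looked at in this way and 1 stood out, where chance alone gives about 1 group in 20. A single droplet with 40613 UMIs held 339 of the 822 Mmp12 UMIs of this mouse, and the level without it was 121 CPM.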

How the results depend on the processing

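The comparisons of the 10 genes gave 0 calls within classes and 0 in whole-lesion sums by edgeR under every alternative of that test: size factors of DESeq2, no filter on low counts, a batch term, the first batch alone, each mouse left out, at least 5000 UMIs a droplet and, within classes, doublets kept, Leiden resolution 1, free RNA subtracted at 5% (Timp1 in microglia-like cells could not be fitted) and, added after the data were seen, bias-adjusted quasi-dispersion (also in the whole lesion). DESeq2 called 1 within classes and 3 in the whole lesion, without a share over all genes to set beside them, and the cause was not tested. A fit with the replicate number as a block also called 0 and 0, with 13 and 3 at an unadjusted p under 0.05. Same-numbered mice did not all deviate together, with r between −0.003 and 0.118 in fibroblast-like cells and −0.434 and 0.142 in the whole lesion. In endothelial-like cells r ran from −0.171 for replicate 1 to 0.191 for replicate 4, the pair of the second batch.

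Of 403 alternatives for 23 values, 393 kept direction and side of the threshold, 4 gained a call by DESeq2 and 6 turned direction. The latter were Mmp3 in fibroblast-like cells with doublets kept (−0.0851) and, with 1 mouse left out, Mmp12 in monocyte-like cells (−0.5984 to 0.8884), Mmp19 in monocyte-like cells (−0.0261 to 0.7514) and Timp2 in microglia-like cells (−0.0692 to 0.0583), none of them called in any fit. The cause was not tested. The order of classes gave 11 to 14 calls of 30, and the difference of effect between classes 0 of 10 throughout, where a single gene could not pass. Of 76 alternatives for the 4 called pericyte-like genes, 20 lost the call, none of them for Fn1. Beside the mice left out, Col1a2 lost it in the first batch alone and at 5000 UMIs, Serpine2 at 5000 UMIs, and Mmp11 at 5000 UMIs and with doublets kept. Few UMIs limited Timp1 in microglia-like cells, with 206, and Mmp9 in neutrophil-like cells of saline replicate 1, with 24 in 12 cells. Few cells limited the fibroblast-like values of saline replicate 3, with 18. The part of the mix of fibroblast-like clusters in that mouse was not tested.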

Other observations

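The 3 droplets that carried most of the Mmp9 of monocyte-like cells shared other transcripts, which were looked at after these values were seen. They held 2206, 988 and 134 UMIs of Ctsk (cathepsin K, a collagen-cleaving protease), 687, 367 and 219 of Acp5 (tartrate-resistant acid phosphatase) and 173, 98 and 59 of Atp6v0d2 (a proton pump subunit), for ancrod replicate 2, ancrod replicate 3 and saline replicate 2. Each held at most 1 UMI of the monocyte markers and at most 1 of the neutrophil markers. Of all 46216 droplets, 3 had at least 10 UMIs of each of Mmp9, Ctsk and Acp5, and they were these 3, from 3 libraries. None was called a doublet.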
